A study of Mus musculus with 16 samples.

Results

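The genes described here encode the light chains, troponins, tropomyosins, actins, alpha-actinins, binding proteins and scaffold proteins of the sarcomere, the contractile unit of striated muscle. They were chosen by name as a list of 31 genes, and all 31 were measured among the 21772 genes tested. Their 45 probes were well above background on all 16 arrays. By their usual place of expression in rodent muscle, 8 were taken as slow fibre genes and 11 as fast fibre genes. A further 4 were taken as genes of developing or cardiac muscle and 8 as genes shared by fibre types. The placing of Mybph among the 4 was a choice made here and is less sure.

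The muscle was the gastrocnemius, a calf muscle of mainly fast fibres, of female mice of the inbred strain C57Bl/6J, for which the labels name no treatment. There were 4 samples at each of 3, 15, 24 and 29 months of age, with 1 array per sample, on which each probe's brightness gives the abundance of its labelled RNA in 1 colour. The comparisons asked how the transcripts of the muscle differed between ages. Whether samples were single animals or pools is not stated in the labels, so the p-values rest on differences among the 4 samples of an age, and these may be technical. Levels are log2 signals relative to the 75th percentile of the array, so that 1 unit is a doubling and 0 is the level that 75% of probes lie below. A gene was called changed when its limma p, adjusted by Benjamini-Hochberg over all genes tested, was under 0.05.

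In a sarcomere, myosin heads on thick filaments pull on thin filaments of actin. Calcium that binds troponin C moves tropomyosin along the thin filament and exposes the myosin sites, with troponin I holding the filament off and troponin T tying the complex to tropomyosin. Slow and fast fibres build the same structure from different genes, and a few genes of embryonic or cardiac muscle are used in developing and regenerating fibres. Thin filaments are anchored in the Z-disc by alpha-actinin, thick filaments are cross-linked in the M-band, and the giant proteins titin and nebulin span them.

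Slide 1 carried the arrays of the younger ages, 3 and 15 months, and slide 2 carried 24 and 29 months, so that 15 against 3 months and 29 against 24 months lay within 1 slide and the other comparisons crossed slides. Where a comparison crosses slides, slide and age cannot be told apart. Within a slide each age filled its own column of arrays. Ages 3 and 29 months lay in column 2, and 15 and 24 months in column 1. Column and age therefore cannot be told apart in the comparisons within 1 slide. The share of spots well above background was 48.0% to 60.9% per array, and 0 spots were saturated. Estimated array weights were lowest at 29 months for replicates 1 (0.275) and 3 (0.4), and at 24 months for replicates 2 (0.364) and 4 (0.524). Replicate 1 of 29 months had a T and NK cell marker score, the mean log2 deviation of 5 measured genes of 8 from their means over the 16 arrays, of 3.00, against -0.68 to 0.90 on the other arrays. Replicate 4 of 24 months had an adipocyte marker score, over 6 measured genes of 7, of 3.00, against -2.03 to 1.09 on the others. Of 6 cardiac markers, Tnni3, Ryr2, Myl7 and Gata4 did not pass the filter for signal above background.

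Few of the sarcomere genes were called changed between ages. At 29 against 3 months, Neb (nebulin) rose and Actc1 (cardiac alpha-actin) fell, so that 2 of 31 members were called, where 14.8% of all genes tested were called. Of all genes, 6.84% were called higher and 7.95% lower. At 15 against 3 months Actc1 fell and no other member was called, against 0.905% of all genes. No member was called at 24 against 3 months (4.43% of all genes), at 24 against 15 months (0.101%) or at 29 against 24 months (1.52%). In these 3 comparisons 7, 3 and 1 of the 31 members had an unadjusted p under 0.05, where 20.8%, 13.1% and 15.2% of all genes did. The number of arrays limits the precision, and a member that was not called may still have changed.

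**Figure D1:**
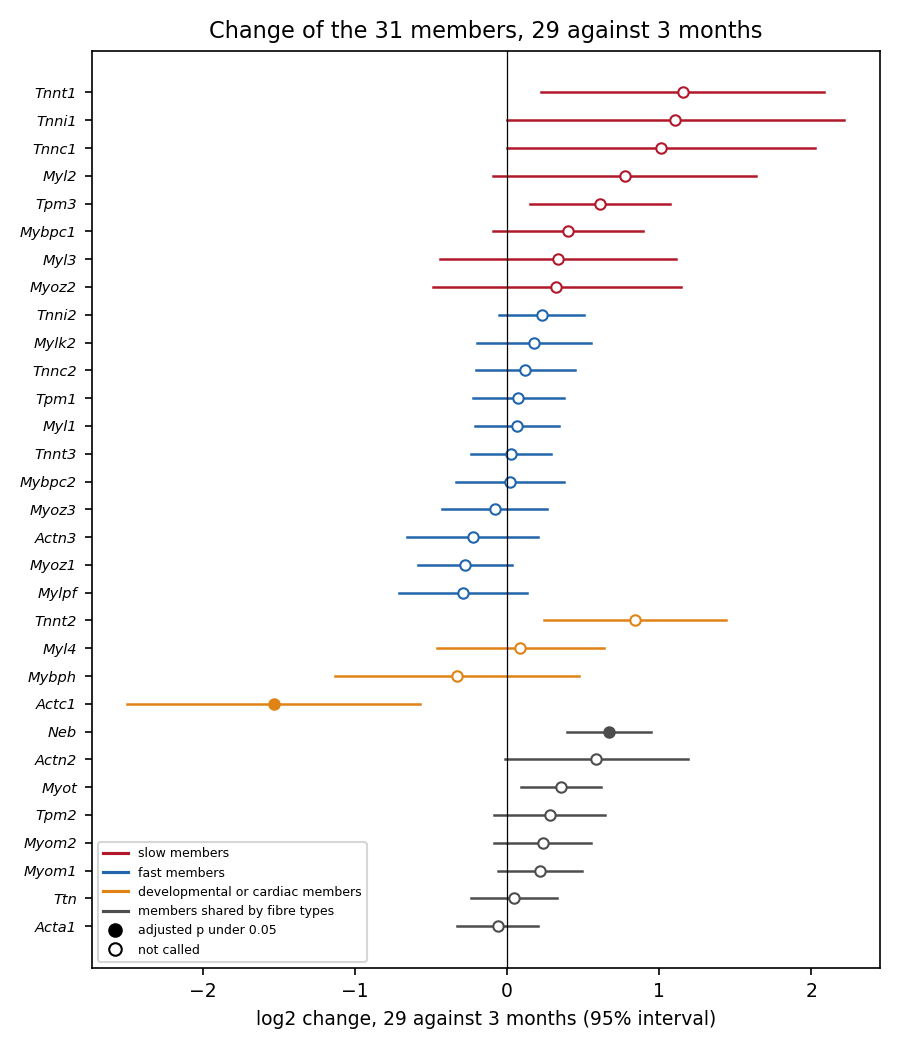
Change of each of the 31 sarcomere genes at 29 against 3 months, on the log2 scale, with its 95% interval from the limma fit (4 arrays per age). Filled points are Neb and Actc1, the members with adjusted p under 0.05. The 8 slow members all lie right of 0, most with wide intervals, and the 11 fast members lie close to 0.

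The actins showed the largest change. Actc1 encodes the alpha-actin of heart muscle, which skeletal muscle makes during development and replaces by Acta1, the adult skeletal alpha-actin. Actc1 read 8.04, 8.59, 8.32 and 7.93 at 3 months, 6.22, 5.36, 5.89 and 5.19 at 15 months, 6.95, 6.27, 7.71 and 5.83 at 24 months, and 6.57, 6.72, 5.53 and 7.93 at 29 months. All arrays of 15 months lay below all arrays of 3 months, while at 24 and 29 months the arrays were spread and replicate 4 of 29 months reached the lowest array of 3 months. Its mean was 5.66 ± 0.48 at 15 months, against 8.22 ± 0.30 at 3 months (SD, n = 4 each). This is a 5.89-fold fall (log2 change -2.56, SE 0.45, adjusted p = 0.0144), with a 95% interval of -3.52 to -1.60. At 29 months the mean was 6.69 ± 0.98, a 2.9-fold fall against 3 months (log2 change -1.54, SE 0.45, adjusted p = 0.033). The 15 against 3 months comparison lies within 1 slide, and its call was lost without 15 months replicate 2 (adjusted p = 0.0581) or replicate 4 (adjusted p = 0.051). The call at 29 against 3 months was lost under 13 of 30 alternatives, among them the omission of any array of 3 months or of replicate 1, 2 or 3 of 29 months, with changes of -1.95 to -0.90 and adjusted p up to 0.122. No further fall was called after 15 months. The log2 change was 1.03 (adjusted p = 0.355) for 24 against 15 months. It was 0.00 (adjusted p = 0.998) for 29 against 24 months. For 24 against 3 months it was -1.53 (adjusted p = 0.0673). The step of 29 against 24 minus that of 15 against 3 months was 2.56 (adjusted p = 0.0895), where 0.611% of all genes were called. A straight line in age within slides gave -0.18 per month (adjusted p = 0.0448), the only member called by it, against 0.597% of all genes. This line draws on the within-slide steps alone, and mostly on the longer of them, 15 against 3 months. Its call is therefore not separate from the call at 15 against 3 months. The call by the line was lost under 16 of 29 alternatives, 12 of which left out 1 array. In bulk muscle, fewer cells of a type and less RNA per cell cannot be told apart.

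Acta1, by contrast, read 10.58, 10.49, 10.52 and 10.53 at 3 months, 10.73, 10.76, 10.54 and 10.39 at 15 months, 10.55, 10.38, 10.67 and 10.49 at 24 months, and 10.10, 10.67, 10.53 and 10.56 at 29 months. The ages overlapped and no comparison called it (log2 change -0.06, SE 0.12, adjusted p = 0.789 at 29 against 3 months). Its probe lay within 1 log2 unit of the scanner's saturation value, and how far it could follow a change was not tested. Markers of other cells were set beside Actc1. The fibroblast and matrix score lay between -1.56 and 0.45 at 29 months and between 0.14 and 0.39 at 15 months, against 0.60 to 1.35 at 3 months. Of its 7 genes 0 were called at 15 against 3 months, and Sparc, Col1a1, Col1a2 and Col3a1 were called lower at 24 and at 29 against 3 months. Of all genes, 0.905%, 4.43% and 14.8% were called at 15, 24 and 29 against 3 months. The smooth muscle score, over 6 measured genes of 7, lay between -0.62 and -0.27 at 29 months and between 0.01 and 0.34 at 15 months, against -0.03 to 0.77 at 3 months. The part of these cells in the fall of Actc1 was not tested.

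The promoters of the 2 actins are shown because Actc1 changed and Acta1 did not pass the test, and because both hold a CArG box, the site of serum response factor. Sequences are RefSeq's for GRCm38.p6, from 250 bases before to 50 after the start, 5′ to 3′ on the minus strand of the chromosome, and capitals mark the CArG box and CATTCC (the MCAT element) on either strand.
Actc1, chr2:114052826-114053125: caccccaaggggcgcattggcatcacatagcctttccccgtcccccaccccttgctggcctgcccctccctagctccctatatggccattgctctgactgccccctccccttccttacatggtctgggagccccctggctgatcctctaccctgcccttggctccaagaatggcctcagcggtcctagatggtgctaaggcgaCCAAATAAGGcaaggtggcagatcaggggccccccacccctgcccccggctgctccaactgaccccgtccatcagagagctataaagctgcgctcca
Acta1, chr8:123894726-123895025: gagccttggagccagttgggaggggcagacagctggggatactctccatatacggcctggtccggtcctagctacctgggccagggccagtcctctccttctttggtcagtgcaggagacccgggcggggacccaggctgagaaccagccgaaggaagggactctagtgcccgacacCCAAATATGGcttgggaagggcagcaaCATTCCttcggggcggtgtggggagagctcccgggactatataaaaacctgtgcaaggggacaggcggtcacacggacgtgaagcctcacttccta
A promoter was given for 22 of the 31 members, with 26 promoters among them. A member counted as holding a motif if any of its promoters did, while the share of all promoters counts each promoter singly. The 2 shares are thus not in the same unit. A CArG box was found in 4 of these 22 genes (18.2%), Acta1, Actc1, Myl3 and Myom1, and in 1.63% of 32851 promoters. These are matches of letters in a window and were not tested as binding sites. Srf, the gene of serum response factor itself, read 3.35, 3.47, 3.34 and 3.51 at 3 months, 3.51, 3.19, 3.40 and 3.07 at 15 months, 3.26, 3.38, 3.27 and 2.83 at 24 months, and 2.61, 2.81, 3.21 and 2.83 at 29 months. It was called lower at 29 against 3 months (log2 change -0.55, SE 0.15, adjusted p = 0.0204).

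Nebulin, which lies along the thin filament and bears on its length, rose at 29 against 3 months. Neb read 8.00, 8.12, 8.26 and 8.26 at 3 months, 8.45, 8.53, 8.16 and 8.28 at 15 months, 8.60, 8.89, 8.56 and 8.36 at 24 months, and 8.62, 8.95, 9.01 and 8.74 at 29 months. All arrays of 29 months lay above all arrays of 3 months, as did those of 24 months, with 15 months between and overlapping. The mean at 29 months was 8.83 ± 0.18, against 8.16 ± 0.13 at 3 months (SD, n = 4 each). Neb was thus 1.59 times as high at 29 months (log2 change 0.67, SE 0.13, adjusted p = 0.00331), and the call was kept under all 30 alternatives, with changes of 0.38 to 0.74. Within slides the changes were 0.20 (adjusted p = 0.689) at 15 against 3 and 0.23 (adjusted p = 0.435) at 29 against 24 months, neither called, and the line within slides had a slope of 0.02 per month (adjusted p = 0.477). A second probe of Neb read 7.25, 7.18, 6.87 and 7.06 at 3 months, 7.36, 7.25, 7.51 and 7.10 at 15 months, 7.09, 7.18, 7.40 and 6.95 at 24 months, and 7.05, 7.05, 7.38 and 7.26 at 29 months. Its arrays of 29 and 3 months overlapped, and its log2 change was 0.09 (adjusted p = 0.693). The difference between the probes, 0.58 (adjusted p = 0.0746), was not called among 6655 pairs of probes, of which 3.52% were.

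Titin, the giant spring from Z-disc to M-band, was measured by 4 probes whose changes at 29 against 3 months lay between -0.06 and 0.34, and Ttn was called in no comparison. The M-band proteins Myom1 and Myom2 and the Z-disc protein Myot were likewise not called. Myot had a log2 change of 0.35 (adjusted p = 0.0695) at 29 against 3 months and became called without 29 months replicate 1 (adjusted p = 0.0316) and by quantile normalization (0.048). Among the alpha-actinins, Actn2 is found in slow and fast fibres and Actn3 in fast fibres. Actn2 read 6.63, 6.35, 5.57 and 6.72 at 3 months, 6.15, 6.41, 6.60 and 7.05 at 15 months, 6.97, 6.56, 6.67 and 6.52 at 24 months, and 6.13, 7.30, 7.17 and 7.02 at 29 months. Its 3 months replicate 3 was the lowest array of all, and the ages overlapped (log2 change 0.59, SE 0.28, adjusted p = 0.185 at 29 against 3 months). Actn3 read 9.59, 9.51, 9.56 and 9.59 at 3 months, 9.89, 9.66, 9.70 and 9.30 at 15 months, 9.10, 9.35, 9.53 and 8.95 at 24 months, and 9.01, 8.97, 10.00 and 9.38 at 29 months. The 4 arrays of 3 months lay within a narrow band and those of 29 months spread to both sides of it (log2 change -0.23, SE 0.20, adjusted p = 0.505). Without 29 months replicate 1, Actn2 was called higher at 29 against 3 months (log2 change 0.85, adjusted p = 0.0421).

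**Figure D2:**
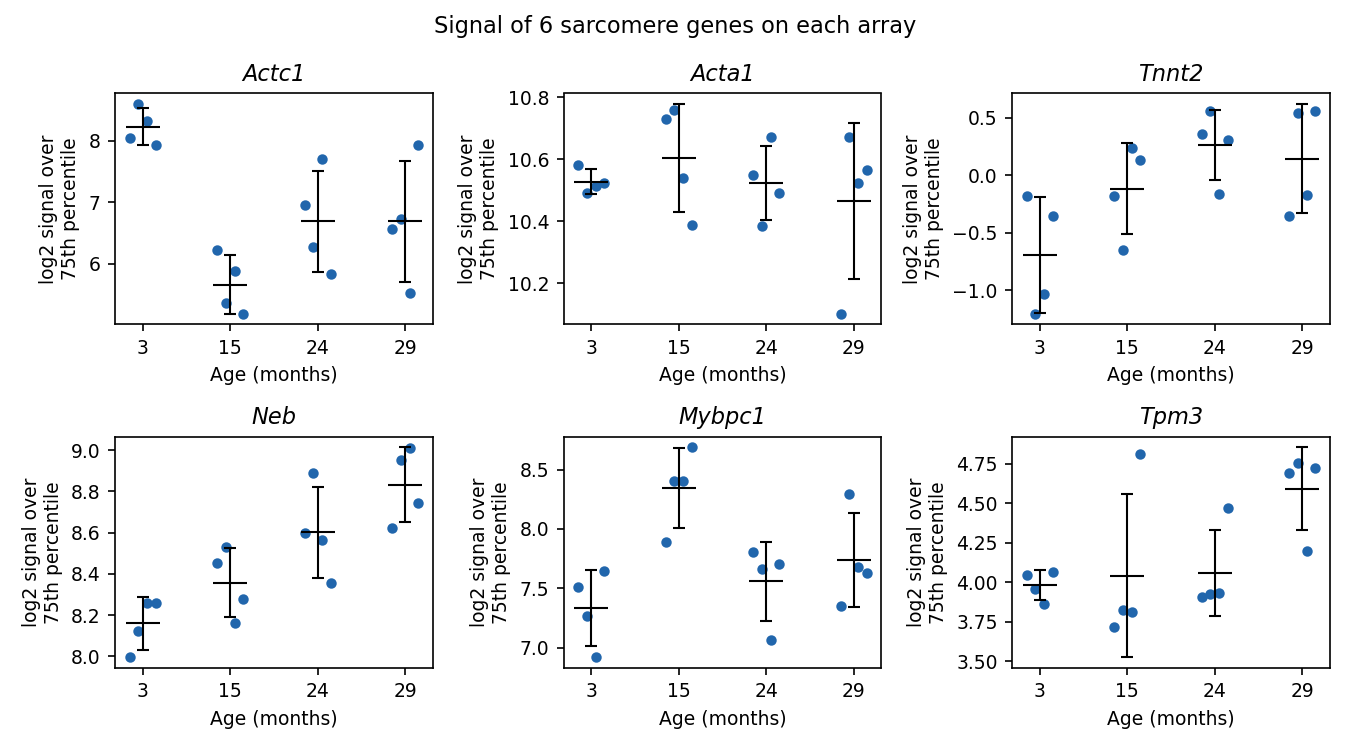
Signal of Actc1, Acta1, Tnnt2, Neb, Mybpc1 and Tpm3 on each of the 16 arrays, as log2 over the 75th percentile, by age in months. Points are arrays and bars are the mean and SD of 4 arrays. Actc1 is lowest at 15 months, Neb is highest at 29 months, and each panel has its own scale.

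Among the slow members, all 8 had a positive change at 29 against 3 months, with a median of 0.69 on the log2 scale, where the median of all genes tested was -0.04. Of all genes tested, 45% had a positive change. None of the 8 was called, and 4 had an unadjusted p under 0.05, where 28.8% of all genes did. The median of the slow members lay between 0.50 and 0.95 under the alternatives, with the lowest without 3 months replicate 3, when 6 of 8 changes were positive. At 15 against 3 months the median was 0.27, and it was -0.15 without 15 months replicate 4. At 29 against 24 months, within slide 2, the median was 0.10 with 6 of 8 changes positive, and it was -0.02 without 29 months replicate 2.

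Troponin forms the calcium switch, with slow troponin I, T and C encoded by Tnni1, Tnnt1 and Tnnc1. Tnnt1 read 8.32, 7.25, 6.49 and 8.32 at 3 months, 7.49, 7.83, 7.59 and 9.14 at 15 months, 8.44, 9.22, 8.39 and 8.66 at 24 months, and 7.97, 9.22, 8.85 and 8.97 at 29 months. Its 24 month arrays lay above all 3 month arrays and its 29 month arrays overlapped them (log2 change 1.16, SE 0.44, adjusted p = 0.091 at 29 against 3 months). Tnni1 read 4.95, 3.74, 2.52 and 4.69 at 3 months, 4.02, 3.56, 3.87 and 5.56 at 15 months, 4.86, 5.48, 4.80 and 5.19 at 24 months, and 4.05, 5.45, 5.23 and 5.60 at 29 months. Replicate 3 of 3 months was the lowest of the 16 arrays, and the range over all arrays was 3.08, or 8.45-fold (log2 change 1.11, SE 0.52, adjusted p = 0.173 at 29 against 3 months). Tnnc1 read 4.26, 3.08, 2.25 and 4.16 at 3 months, 3.40, 3.18, 3.33 and 4.91 at 15 months, 4.13, 5.08, 4.17 and 4.53 at 24 months, and 3.50, 4.86, 4.75 and 4.69 at 29 months. All 3 slow subunits were lowest on replicate 3 of 3 months, and none was called (log2 change 1.01, SE 0.47, adjusted p = 0.173 for Tnnc1 at 29 against 3 months).

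Their fast counterparts were called in no comparison. Tnni2, fast troponin I, read 10.57, 10.74, 10.92 and 10.86 at 3 months, 11.06, 11.26, 10.74 and 10.79 at 15 months, 11.15, 11.24, 11.09 and 10.93 at 24 months, and 10.79, 11.14, 11.12 and 10.97 at 29 months. After scaling, its 24 month arrays lay above all 3 month arrays by a small amount, the nearest being 10.93 against 10.92. Its probe lay 0.5 log2 units below the scanner's saturation value, and ranged over 0.31 before scaling and 0.69 after. At 29 against 3 months Tnni2 was not called (log2 change 0.23, SE 0.13, adjusted p = 0.269). Tnnt3, fast troponin T, read 10.50, 10.63, 10.84 and 10.69 at 3 months, 10.79, 10.93, 10.57 and 10.49 at 15 months, 10.70, 10.92, 10.65 and 10.49 at 24 months, and 10.50, 10.74, 10.81 and 10.71 at 29 months. The ages overlapped throughout (log2 change 0.03, SE 0.12, adjusted p = 0.915). Tnnc2, fast troponin C, read 10.81, 10.87, 11.14 and 10.98 at 3 months, 11.13, 11.41, 10.84 and 10.75 at 15 months, 11.22, 11.47, 11.06 and 11.03 at 24 months, and 10.85, 11.29, 11.12 and 11.04 at 29 months. It overlapped between ages as well (log2 change 0.12, SE 0.15, adjusted p = 0.65). Tnnt2, the troponin T of heart and developing muscle, read -0.18, -1.21, -1.04 and -0.35 at 3 months, -0.18, -0.65, 0.24 and 0.13 at 15 months, 0.36, 0.56, -0.16 and 0.31 at 24 months, and -0.36, 0.55, -0.17 and 0.56 at 29 months. All 24 month arrays lay above all 3 month arrays, while the ages 29 and 3 months overlapped. Its change of 0.96 (adjusted p = 0.0657) at 24 and 0.84 (adjusted p = 0.0577) at 29 against 3 months missed the threshold, and it was called at 29 against 3 months without 3 months replicate 1 (adjusted p = 0.0383) or 29 months replicate 1 (adjusted p = 0.0341).

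The myosin light chains stiffen and tune the neck of the myosin head. Myl3, the slow essential chain, read 9.14, 8.43, 7.54 and 9.18 at 3 months, 8.12, 8.20, 7.97 and 9.25 at 15 months, 8.36, 9.21, 8.77 and 8.94 at 24 months, and 8.29, 9.27, 8.92 and 9.15 at 29 months. Fast Myl1 read 10.13, 10.23, 10.31 and 10.33 at 3 months, 10.45, 10.62, 10.12 and 10.12 at 15 months, 10.46, 10.55, 10.35 and 10.32 at 24 months, and 10.04, 10.53, 10.29 and 10.39 at 29 months. Neither separated the ages (log2 change 0.34, SE 0.36, adjusted p = 0.592 for Myl3 and log2 change 0.06, SE 0.13, adjusted p = 0.798 for Myl1). Myl4, the essential chain of embryonic muscle and atrium, read 3.73, 3.14, 3.97 and 3.60 at 3 months, 2.72, 2.93, 3.38 and 3.65 at 15 months, 3.72, 3.70, 3.63 and 3.42 at 24 months, and 3.58, 3.96, 3.00 and 4.25 at 29 months. It overlapped between all pairs of ages (log2 change 0.09, SE 0.26, adjusted p = 0.865). Myl2, the slow regulatory chain, read 8.04, 7.42, 6.51 and 8.18 at 3 months, 7.47, 7.73, 7.82 and 8.84 at 15 months, 7.68, 8.61, 7.85 and 8.20 at 24 months, and 7.30, 8.78, 8.59 and 8.56 at 29 months. Replicate 1 of 29 months lay far below the other arrays of its age (log2 change 0.77, SE 0.41, adjusted p = 0.227). Mylpf, the fast regulatory chain, read 4.43, 4.42, 4.09 and 4.13 at 3 months, 4.57, 4.22, 4.34 and 3.87 at 15 months, 4.03, 3.55, 4.54 and 3.95 at 24 months, and 3.66, 3.97, 4.21 and 4.07 at 29 months. Its ages overlapped (log2 change -0.29, SE 0.20, adjusted p = 0.363). The sole probe of Mylpf had a mean level of 4.13, below slow Myl2 at 7.97 and fast Myl1 at 10.33. How well that probe reads the transcript was not tested. Mylk2, the kinase that phosphorylates the regulatory chain in skeletal muscle, had means of 7.03 ± 0.26 at 29 months, against 6.85 ± 0.15 at 3 months, and was not called (log2 change 0.18, SE 0.17, adjusted p = 0.556).

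Tropomyosin lies along the thin filament. Tpm3, the slow isoform, read 4.05, 3.96, 3.86 and 4.07 at 3 months, 3.72, 3.82, 3.81 and 4.81 at 15 months, 3.91, 3.93, 3.94 and 4.47 at 24 months, and 4.69, 4.75, 4.20 and 4.72 at 29 months. All 29 month arrays lay above all 3 month arrays (log2 change 0.61, SE 0.22, adjusted p = 0.0729), and Tpm3 was 1 of 2 members whose arrays did not overlap at 29 against 3 months, the other being Neb. That is 6.5% of members, where 19.7% of all genes did not overlap. A second Tpm3 probe read 3.77, 2.78, 1.86 and 3.73 at 3 months, 3.10, 3.02, 2.74 and 4.47 at 15 months, 4.06, 5.11, 3.96 and 4.28 at 24 months, and 3.93, 4.96, 4.54 and 4.48 at 29 months. It changed by 1.44 (adjusted p = 0.0404 over all kept probes, of which 14.4% were called). At 3 months the SD was 0.09 for the brightest Tpm3 probe and 0.91 for the second. The brightest stood for the gene among the slow members, and which transcripts each probe reads was not tested. Tpm1, the fast isoform, read 10.48, 10.55, 10.71 and 10.67 at 3 months, 10.79, 10.97, 10.37 and 10.45 at 15 months, 10.81, 11.05, 10.67 and 10.58 at 24 months, and 10.48, 10.84, 10.69 and 10.70 at 29 months. The brightest probe of this gene overlapped between ages (log2 change 0.07, SE 0.14, adjusted p = 0.778). Tpm2, which slow and fast fibres share, read 7.93, 7.83, 7.42 and 7.96 at 3 months, 8.04, 8.07, 7.98 and 8.48 at 15 months, 7.99, 8.13, 7.77 and 7.98 at 24 months, and 7.81, 8.54, 7.87 and 8.04 at 29 months. At 15 months its 4 arrays lay above those of 3 months, with a log2 change of 0.36 (adjusted p = 0.465) that was not called.

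Probes of Tpm1 differed in their change. Tpm1 has 5 kept probes, and alternative splicing gives it transcripts of muscle and of other tissues. The dimmest probe, named in the files for another transcript of the gene, read -0.60, -0.46, -0.56 and -1.21 at 3 months, -0.30, -0.43, -0.70 and -1.35 at 15 months, -1.41, -0.87, -0.74 and -0.46 at 24 months, and -1.74, -1.79, -2.13 and -1.31 at 29 months. All its 29 month arrays lay below all its 3 month arrays, a change of -1.04 (adjusted p = 0.0143). The brightest probe minus this one changed by 1.11 (adjusted p = 0.0432), and the other 3 probes changed by -0.55 to -0.10. Myl1 likewise had a second probe of another transcript, with a change of -0.57 (adjusted p = 0.0832). So did Tnnt3, with a change of -0.29 (adjusted p = 0.229).

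**Figure D3:**
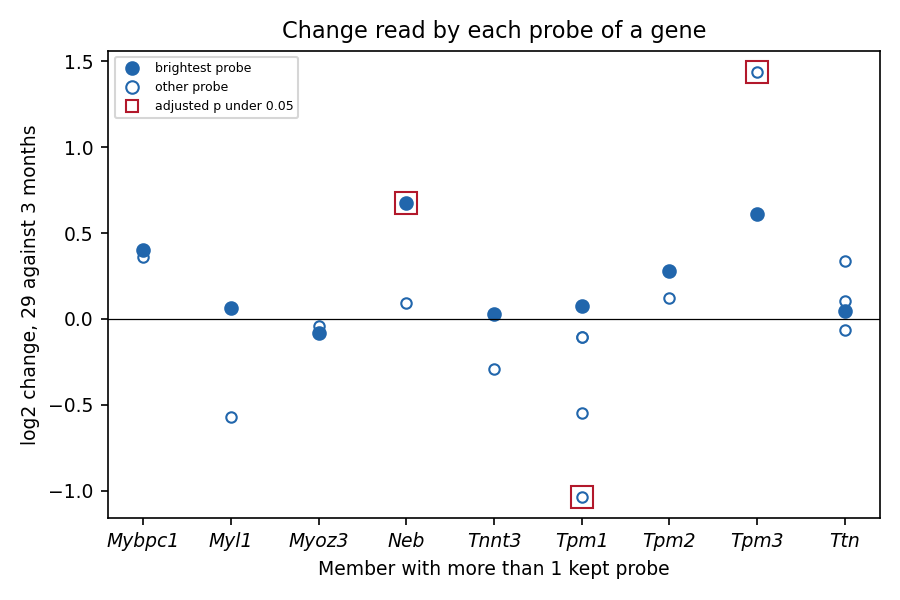
Log2 change at 29 against 3 months read by each kept probe of the 9 members with more than 1 probe, from the limma fit. Filled points are the brightest probe that stands for the gene, and squares mark adjusted p under 0.05 over all kept probes. Neb, Tpm1 and Tpm3 have 1 such probe each, and for Tpm1 and Tpm3 it is not the brightest.

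Myosin binding protein C holds thick filaments in register and tunes the heads. Mybpc1, the slow isoform, read 7.51, 7.27, 6.92 and 7.65 at 3 months, 7.89, 8.41, 8.40 and 8.69 at 15 months, 7.80, 7.66, 7.07 and 7.70 at 24 months, and 7.35, 8.30, 7.68 and 7.63 at 29 months. All 15 month arrays lay above all 3 month arrays and all 24 month arrays below all 15 month arrays. Its mean was 8.34 ± 0.33 at 15 months, against 7.34 ± 0.32 at 3 months (log2 change 1.01, SE 0.23, adjusted p = 0.0532), just short of the threshold, and a second probe changed by 1.09 (adjusted p = 0.0439 over all kept probes, of which 0.985% were called). At 24 against 15 months the change was -0.79 (adjusted p = 0.181). Mybpc2, the fast isoform, read 9.04, 8.95, 9.10 and 8.97 at 3 months, 9.33, 9.19, 9.20 and 8.69 at 15 months, 8.72, 9.12, 9.31 and 8.69 at 24 months, and 8.95, 8.78, 9.34 and 9.08 at 29 months. Its ages overlapped (log2 change 0.02, SE 0.17, adjusted p = 0.959). Mybph, a related protein, read 5.66, 5.57, 6.43 and 6.12 at 3 months, 5.87, 5.78, 5.89 and 4.22 at 15 months, 5.66, 5.28, 6.54 and 5.31 at 24 months, and 5.32, 5.22, 6.06 and 5.86 at 29 months. At 15 months replicate 4 lay far below the rest (log2 change -0.33, SE 0.38, adjusted p = 0.615).

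The myozenins tether calcineurin at the Z-disc. Myoz2, the slow member, read 5.65, 5.11, 4.12 and 5.74 at 3 months, 4.71, 4.81, 5.27 and 6.03 at 15 months, 5.34, 5.70, 5.04 and 5.37 at 24 months, and 4.57, 5.82, 6.00 and 5.54 at 29 months. Its ages overlapped, with 3 months replicate 3 the lowest array (log2 change 0.33, SE 0.38, adjusted p = 0.625). Myoz1, the fast member, read 8.81, 8.75, 8.95 and 8.96 at 3 months, 8.96, 8.78, 8.86 and 8.57 at 15 months, 8.50, 8.80, 8.71 and 8.26 at 24 months, and 8.38, 8.43, 8.98 and 8.57 at 29 months. Its ages overlapped as well (log2 change -0.28, SE 0.15, adjusted p = 0.229). Myoz3, also fast, had 15 month arrays above all 3 month arrays, with a mean of 5.33 ± 0.14 at 15 months, against 4.98 ± 0.10 at 3 months (log2 change 0.34, SE 0.16, adjusted p = 0.462).

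At 15 and at 24 against 3 months, the share of members whose arrays did not overlap was close to that of all genes. The members concerned at 15 against 3 months were Tpm2, Actc1, Mybpc1 and Myoz3 (12.9% of members), where 12.3% of all genes did not overlap. At 24 against 3 months they were Tnni2, Tnnt1, Tnnt2, Actc1 and Neb (16.1%), where 14.6% of all genes did not overlap. Of these, Tnni2 was read near the scanner limit and was only narrowly apart. At 24 against 15 months Mybpc1 alone did not overlap (3.2%), where 9.55% did, and at 29 against 24 months 0 members did, where 6.89% of all genes did.

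The slow members varied more within an age than the fast members, and shared their lowest array at 3 months and their highest at 15 months. Their within-age SD had a median of 0.61, from 0.32 to 0.81. The developmental or cardiac members had a median of 0.51, from 0.39 to 0.70, with which the slow range overlaps. The median was 0.21, from 0.17 to 0.30, for the fast members, 0.18 for the shared members and 0.23 for all genes tested. Replicate 3 of 3 months was the lowest of its age for all 8 slow members and the lowest of all 16 arrays for 7. Tpm3 was the exception by its brightest probe, while its second probe was lowest of all 16 arrays there, at 1.86. Replicate 4 of 15 months was the highest of its age for all 8. Replicate 1 of 29 months was the lowest of its age for 7, and replicate 2 of 24 months the highest of its age for 6. Other classes had the same extremes on these last arrays, with replicate 1 of 29 months the lowest of its age for 7 of 11 fast and 7 of 8 shared members, and replicate 2 of 24 months the highest for 7 of 11 fast and 6 of 8 shared members. The mean log2 deviation of the slow members, from their means over the 16 arrays, was 0.15, -0.56, -1.32 and 0.16 at 3 months, -0.49, -0.40, -0.33 and 0.81 at 15 months, -0.03, 0.52, -0.09 and 0.29 at 24 months, and -0.38, 0.72, 0.44 and 0.52 at 29 months. That of the fast members stayed between -0.23 and 0.24. Slow fibre genes outside the list moved on the same arrays, with a score over 7 of 8 genes, Pln not being measured, of 0.45, -0.42, -1.40 and 0.08 at 3 months and of -0.62, 1.01, 0.67 and 0.80 at 29 months. Myh7, the slow myosin heavy chain, read 8.59, 7.48, 6.54 and 8.55 at 3 months, 7.62, 7.69, 7.59 and 9.17 at 15 months, 8.49, 9.24, 8.45 and 8.69 at 24 months, and 8.00, 9.25, 9.10 and 9.01 at 29 months. The array with the lowest slow score was also the lowest for Myh7, and 29 months replicate 1 was the lowest of its age for it. What sets these arrays apart was not tested.

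**Figure D4:**
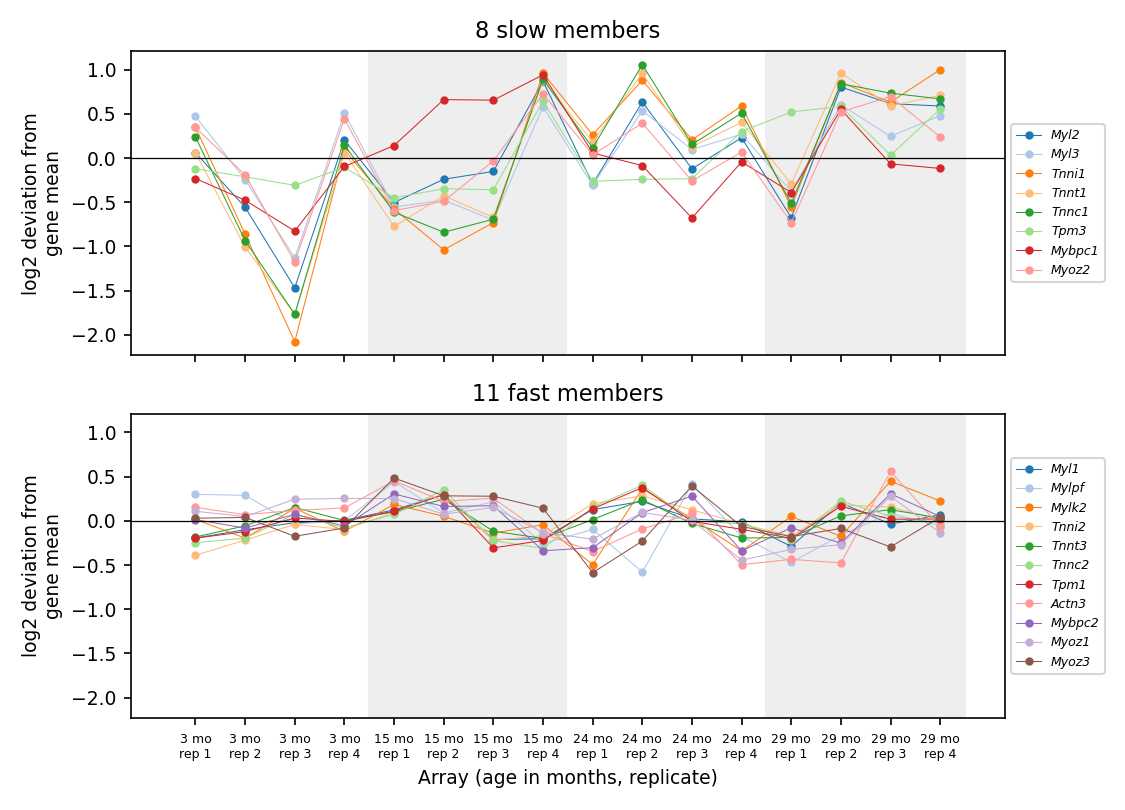
Log2 deviation of each slow member (top) and each fast member (bottom) from its own mean over the 16 arrays, by age and replicate. Lines join the points of a gene across arrays and carry no order within an age. Slow members are low together on 3 months replicate 3 and high together on 15 months replicate 4, while fast members stay near 0.

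The promoters of Tnnc1 and Myl3 are shown as those of slow members that were low and high on the same arrays. Both are on the plus strand, and capitals mark the CArG box and CATTCC on either strand.
Tnnc1, chr14:31208062-31208361: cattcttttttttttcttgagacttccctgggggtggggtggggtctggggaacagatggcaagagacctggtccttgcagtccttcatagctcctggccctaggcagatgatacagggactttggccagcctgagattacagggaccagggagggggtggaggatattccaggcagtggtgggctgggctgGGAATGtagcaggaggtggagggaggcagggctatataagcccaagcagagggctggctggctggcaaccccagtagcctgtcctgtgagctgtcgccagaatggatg
Myl3, chr9:110763428-110763727: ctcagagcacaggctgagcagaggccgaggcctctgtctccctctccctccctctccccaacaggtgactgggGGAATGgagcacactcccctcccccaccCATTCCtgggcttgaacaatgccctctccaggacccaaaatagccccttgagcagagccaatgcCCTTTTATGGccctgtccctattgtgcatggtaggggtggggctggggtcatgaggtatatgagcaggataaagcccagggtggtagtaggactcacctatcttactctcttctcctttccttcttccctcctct
Both strands were searched for each motif, and TATAAA can lie within a MEF2 site. Members were again counted by gene, and all promoters singly. CATTCC was found in 9 of 22 member genes (40.9%) and in 14.7% of all promoters. The E-box CANNTG, which myogenic factors bind, was found in 21 of 22 (95.5%) and in 72.3%, TATAAA in 6 of 22 (27.3%) and in 13.6%, and the MEF2 site in 2 of 22 (9.09%), Myoz2 and Ttn, and in 3.19%. Of the 8 slow members with a promoter, 2 held CATTCC, and of the 5 fast members 3 did.

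Slow isoforms were also set over fast isoforms in 8 families. The difference was positive for all 8 at 29 against 3 months, for 7 of 8 at 15 against 3 months, and in no family did the arrays of 2 ages fail to overlap. For troponin T, the slow minus fast difference, centred on its mean over the 16 arrays, was -0.10, 0.91, 0.47 and 0.68 at 29 months, against 0.24, -0.95, -1.92 and 0.06 at 3 months. These are descriptions without a test. The slow members moved together across arrays, so the 8 families are not separate observations. In 4 of the 8 families the fast partner (Tnni2, Tnnt3, Tnnc2 or Tpm1) was read within 1 log2 unit of the scanner's saturation value and ranged over 0.20 to 0.41 before scaling, so that the difference there follows the slow isoform's level. Myl1, the fast partner of Myl3, lay 1.13 log2 units below that value and also ranged narrowly, over 0.35.

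Several members were read near the upper limit of the scanner. Tnni2, Tnnt3, Tnnc2, Tpm1 and Acta1 had mean signals within 1 log2 unit of the scanner's saturation value of 19.57. Before scaling, the 4 fast ones ranged over 0.20 to 0.41 log2 units across the 16 arrays, less than the 75th percentile itself, which ranged over 0.73. After scaling these 5 ranged over 0.44 to 0.72, and for the 4 fast ones the range after scaling was the larger. Fast Myl1, just outside that bound at 1.13 log2 units below the saturation value, ranged over 0.35 before scaling and 0.59 after. Without scaling, the median change of the fast members at 29 against 3 months was -0.14, against 0.03 with it, and the median of all genes was -0.21, against -0.04 with it. How far these probes could follow a change was not tested.

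**Figure D5:**
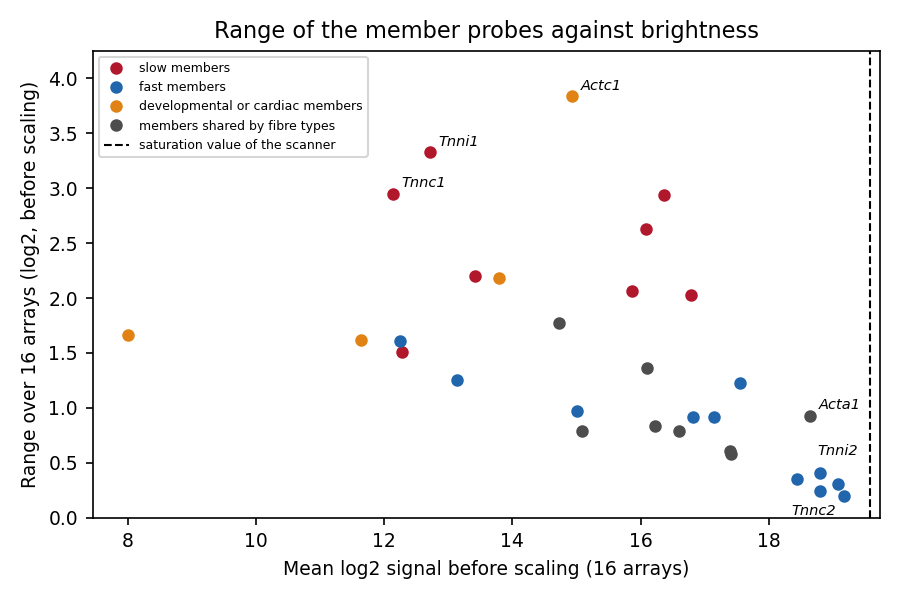
Range of each member's log2 signal over the 16 arrays before scaling, against its mean log2 signal. The dashed line is the saturation value of the scanner (19.57). Tnnc2 and Tnni2, near that line, range over 0.20 and 0.31, and Actc1 ranges over 3.84.

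Of other fast fibre genes outside the list, 8 of 9 were measured, and 2 were called lower at 29 against 3 months, Casq1 and Gpd1, where 7.95% of all genes were. Casq1, the calcium buffer of the fast store, read 6.39, 6.40, 6.41 and 6.23 at 3 months, 6.27, 6.01, 6.12 and 5.68 at 15 months, 5.65, 5.46, 6.09 and 5.53 at 24 months, and 5.06, 5.05, 5.09 and 5.41 at 29 months. All 29 month arrays lay below all 3 month arrays (log2 change -1.20, SE 0.15, adjusted p = 0.000163). Gpd1, which shuttles reducing power, read 7.83, 7.84, 8.03 and 7.79 at 3 months, 7.80, 7.60, 7.63 and 7.22 at 15 months, 7.12, 7.38, 7.73 and 7.06 at 24 months, and 6.98, 6.97, 7.43 and 7.24 at 29 months. Its arrays did not overlap either (log2 change -0.71, SE 0.16, adjusted p = 0.00817). Of 7 other slow fibre genes measured, 0 were called, and the lowest p were those of Ankrd2 (log2 change 1.26, SE 0.48, adjusted p = 0.0975) and Atp2a2 (log2 change 1.07, SE 0.46, adjusted p = 0.137), with 3 at an unadjusted p under 0.05, where 28.8% of all genes had one. Embryonic Myh3 had a log2 change of 1.56 (adjusted p = 0.0813) and was not called. Neonatal Myh8 had one of 0.15 (adjusted p = 0.564), read by a probe whose mean log2 signal of 19.08 lay within 1 unit of the saturation value. The mean level of that probe, 10.965, was above that of fast Myh4, 10.491. Which transcript the probe reads was not tested. Of 5 regenerating fibre markers, 2 were called higher, where 6.84% of all genes were, Myog (log2 change 1.64, SE 0.27, adjusted p = 0.00133) and Mymx. Mymx was not well above background on any 3 month array, and passed the filter only through ages where it was high. Its call used 3 month values below that level, so its count among the 2 is no independent support. Against the lowest signal well above background, it was at least 10.5-fold higher at 29 months.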

How the data were processed

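Spot intensity in the scanner files came, per the file headers, from Agilent Feature Extraction 10.7.1.1 (1 colour, Cy3), with background subtracted and spatially detrended and arrays not normalized to each other. The authors also deposited a table of log2 values, of near equal distribution on all arrays, and the steps behind it are stated in none of the sources used here. Its order followed the feature number (r 0.9855 to 0.9928 across features) and not the probe name, and it served only as an alternative.

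Outlier spots were left out (93 probes dropped, 55588 used). Probes were named through RefSeq (26540 matched 1 gene). Log2 signals minus the 75th percentile of the array were kept for probes well above background on all 4 arrays of an age (28427), and the kept probe of highest mean stood for a gene. limma 3.58.1 in R 4.3.3 was fitted with 1 mean per age on the 16 arrays together (12 residual and 2.72 prior degrees of freedom), two-sided, and tested on simulated data. Per-array values are given for each called member and, in each isoform family, for the member of each fibre class with the smallest p at 29 against 3 months. From each companion list the 2 genes of smallest p are named, with all called genes where there were 5 or fewer. Further members were chosen after their values were seen. The members, lists and tests were chosen with earlier results of these data known. Same-numbered samples of different ages did not deviate together (r -0.471 to 0.303), so numbers were not used as pairs.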

Additional observations from a re-analysis of the deposited data

Results flagged for a closer look

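In 7 of 124 sets of 4 arrays, 1 array of a member lay far from the other 3, with its gap to the nearest, as a share of the range, over Dixon's 95% critical value for 4 samples. Chance gives about 1 in 20. At 29 months, replicate 1 was low for Myl2, at 7.30 with the others at 8.56 to 8.78, and for Tnnc1, at 3.50 with the others at 4.69 to 4.86. At 15 months, replicate 4 was high for Tnnc1, at 4.91 with the others at 3.18 to 3.40, and for Tpm3, at 4.81 with the others at 3.72 to 3.82. The same array was low for Mybph, at 4.22 with the others at 5.78 to 5.89. For Tpm3, replicate 4 of 24 months was high, at 4.47 with the others at 3.91 to 3.93, and replicate 3 of 29 months was low, at 4.20 with the others at 4.69 to 4.75.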

How the results depend on the processing

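Over 4630 member changes recomputed under alternatives, 4577 kept their status as called or not called, 15 lost the call and 38 gained it. Of the changes called in the main fit or the alternative, 0 reversed in direction. Direction was not compared where neither called the change. At 15 against 3 months 2 members (Actc1 and Mybpc1), in place of 1, were called by quantile normalization, normexp on median signals (offset 50), the deposited log2 values, the mean over probes, the filter on all arrays, each probe on its own, only the ages compared, eBayes with trend and robust, array weights, and without the 4 arrays of lowest weight. Leaving out 1 array gave 0 to 2. At 24 against 3 months, in place of 0, quantile normalization, the deposited values and array weights called 1 and normexp 2, and leaving out 1 array gave 0 to 2. At 29 against 3 months, in place of 2, array median and no filter called 1 and each probe on its own 4. Quantile normalization called 3 (Myot gained), as did normexp and the filter on all arrays (Tnnt2 gained), the mean over probes (Tpm3 gained) and array weights (Tnnt2 and Tpm3 in place of Actc1). Only the ages compared called 2, with Tpm3 in place of Actc1, as did leaving out the 4 arrays of lowest weight, with Tnnt2 in its place. Leaving out 1 array gave 1 to 4. The difference of steps had 1 by normexp, in place of 0, and 0 to 1 without an array. The line had 0, in place of 1, by array median, no filter, replicate block and no scaling, 2 by normexp, mean over probes, array weights and without the 4 arrays, and 0 to 2 without 1 array. No member was called under any alternative run at 24 against 15 or 29 against 24 months.

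With the replicate block, 2 members were called at 29 against 3 months, Neb and Tpm3, and Actc1 was lost (adjusted p = 0.0657). Of all genes, 1536 were called by array median, in place of 3220, at 29 against 3 months. Without scaling the median of all genes shifted by -0.11 at 15, -0.25 at 24 and -0.17 at 29 against 3 months. No scaling and the probe differences were chosen after seeing the data. Slide as a random block could not be fitted, because each age lay on 1 slide, and normexp ran on median spot signals because the files used here give no mean ones. The cause of the changed calls was not tested. The 27 members in the deposited table and signals near the scanner limit bound what these alternatives show.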

Other observations

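Of other proteins of the sarcomere and Z-disc, 5 of 19 measured were called at 29 against 3 months, Mybpc3 not being measured, where 14.8% of all genes were called. Pdlim3, a Z-disc protein that binds alpha-actinin, rose by 0.57 (adjusted p = 0.00133) on the log2 scale. Flnc, filamin C of the Z-disc, rose by 0.79 (adjusted p = 0.0102). Xirp1, an actin-binding protein of remodelling fibres, rose by 1.58 (adjusted p = 0.0102). Of the leiomodins, which nucleate actin filaments, Lmod2 rose by 1.34 (adjusted p = 0.0169) and Lmod3 had a log2 change of -0.89 (adjusted p = 0.0123). Within slide 2, at 29 against 24 months, Pdlim3 was called as well (log2 change 0.41, SE 0.10, adjusted p = 0.0451).

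The counts that follow are for 29 against 3 months, where 6.84% of all genes were called higher and 7.95% lower. Of 8 sarcomere assembly factors, Srf was called lower. The next by p was Hsp90aa1, a chaperone of myosin folding (log2 change 0.39, SE 0.13, adjusted p = 0.0633). Of 11 measured fibre type regulators, Prox1 not being measured, 2 were called higher, Ppargc1a, a coactivator of oxidative metabolism (log2 change 0.98, SE 0.23, adjusted p = 0.0111), and Vgll2, a cofactor of TEAD factors (log2 change 0.74, SE 0.24, adjusted p = 0.0485). Smtn of the smooth muscle list was called lower (log2 change -1.41, SE 0.16, adjusted p = 9.11e-05), and Actg2 was not (log2 change -1.32, SE 0.53, adjusted p = 0.108). Neither measured cardiac marker was called, Myh6 (log2 change 0.50, SE 0.40, adjusted p = 0.452) or Nppa (log2 change 0.00, SE 0.14, adjusted p = 0.993). The fibroblast and matrix genes called lower were, by log2 change, Sparc at -1.05 (adjusted p = 0.00359), Col1a1 at -2.60 (adjusted p = 0.00415), Col1a2 at -1.89 (adjusted p = 0.00768) and Col3a1 at -2.21 (adjusted p = 0.0271). Of the T and NK list the lowest p were those of Cd2, with a log2 change of 1.79 (adjusted p = 0.206) and Ccl5 at 2.31 (adjusted p = 0.243), and of the adipocyte list those of Retn at -1.16 (adjusted p = 0.268) and Cfd at -0.77 (adjusted p = 0.464), with 0 called in either.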
